A study of Mus musculus with 8 samples.

Results

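The 32 genes described here belong to the cell division cycle and to the histones made when DNA is copied. They were chosen by symbol out of the 32285 genes of the count matrices, and all 32 symbols were found. The 16 mitosis genes were Mki67, Top2a, Birc5, Ube2c, Cenpf, Prc1, Cdk1, Ccnb1, Ccnb2, Ccna2, Aurka, Aurkb, Bub1, Plk1, Tpx2 and Kif11. The 9 replication genes were Pclaf, Mcm2, Mcm3, Mcm5, Mcm6, Pcna, Rrm1, Rrm2 and Tyms. The others were the microtubule regulator Stmn1, the histone genes Hist1h2ap, Hist1h2ae and Hist1h1b, the G1 cyclin Ccnd1 and the inhibitors of cyclin-dependent kinases Cdkn1a and Cdkn2a.

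Messenger RNA was counted in 24227 annotated single cells from ankle and wrist synovium, the membrane around joints, of 17 mice aged 8 to 10 weeks. All 14 arthritic animals carried the human TNF transgene hTNFtg197 (strain B6-Tg(TNF)197Gkl) and had Il23mc for 9 days; 3 had no inhibitor (untreated arthritic), 3 had a TNF-inhibiting antibody, 3 had an IL-17-inhibiting antibody and 5 had no inhibitor and were sorted for CD45- FAP+ Pdpn+ cells (FAP-sorted). The 3 healthy animals were untreated wild types, 1 in each of the 3 libraries of cells gated as viable CD45- GR-1 (so spelled in the design), without FAP and Pdpn enrichment, and hashtag antibodies told the animals of a library apart. Healthy animals 1, 2 and 3 were in the libraries of the untreated arthritic, TNF-inhibited and IL-17-inhibited animals, in that order. Each inhibitor was given in 1 library. Among the arthritic animals treatment and library cannot be told apart, and only the 1 healthy animal of each library bears on that split. The model rests on 1 transgenic line in which the transgene and Il23mc always came together.

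As background, a cell that divides leaves G1, copies its DNA in S phase and then separates its chromosomes in mitosis. Cyclin D1, the product of Ccnd1, drives the kinases that inactivate the Rb protein and so free the E2F factors that switch on replication genes, while the products of Cdkn1a (p21) and Cdkn2a hold these kinases back. The mitosis genes are switched on later, from S phase to mitosis, and their RNA is low in resting cells. RNAs of replication-dependent histones are made in S phase and mostly lack a poly(A) tail, so a library primed on poly(A) counts only part of them. Growth in the number of fibroblasts is a known feature of inflamed synovium.

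Levels are given per animal as CPM, the counts-per-million scale, of unique molecular identifiers (UMIs, each standing for 1 RNA molecule) summed over an animal's fibroblasts and scaled by TMM, with fibroblasts taken as the 5 fibroblast classes of the deposited annotation. Summed fibroblast UMIs ran from 4508588 to 36786390 per animal, and the median UMIs per cell from 9366 to 10463 in the healthy and from 11682 to 20607.5 in the arthritic animals. Because a sum is compared, fewer expressing cells and less RNA per cell cannot be told apart in these values. The labels call the animals individual, but the healthy ones were less well marked than the others: the animal's own hashtag had the highest raw count in 35.0%, 22.5% and 11.5% of the cells of healthy animals 1, 2 and 3, and in 96.1% to 100% of cells of every arthritic animal. Healthy animals 2 and 3 also held cells with Y-linked UMIs (23.3% and 16.8%) beside cells with Xist only (66.3% and 69.1%). For the genes described here, calls against healthy animals are therefore examined below without each healthy animal. Levels, and calls of markers and of wider gene lists, are not. By the readout of Y-linked UMIs and Xist the arthritic groups mixed the sexes. Y-linked UMIs were in 58.3% of cells of untreated arthritic animal 2 and in 80.9% and 86.2% of TNF-inhibited animals 1 and 2. They were in 75.5% of cells of IL-17-inhibited animal 1 and in 74.3% and 73.1% of FAP-sorted animals 1 and 2. The other arthritic animals had 2.48% to 4.70%, and the part of sex in the contrasts was not tested. Between 108 and 136 barcodes of each library recurred in another library, of which 27 to 33 were annotated.

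Promoters of 27 of the 32 genes were found in RefSeq (GRCm38.p6), and 6 are printed because they show the cell cycle elements, or their absence, in genes on which the results turn; Ccnd1, Tpx2, Ccna2, Stmn1 and Aurkb were not matched. The CHR element (TTTGAA or TTCGAA) and the CCAAT box are known elements of promoters active in late cell cycle, and the E2F site (TTTGGCGC, TTTCCCGC, TTTGCCGC or TTTCGCGC) of promoters active at the start of replication. Each motif and TATAAA was searched on both strands from 250 bases before to 50 after the start. Each line gives 200 bases before and 12 bases after the start, 5′ to 3′ in the direction of the gene, with matches of any motif in capitals (matches farther out are counted but not printed).
Mki67, chr7:135716368-135716579, minus strand: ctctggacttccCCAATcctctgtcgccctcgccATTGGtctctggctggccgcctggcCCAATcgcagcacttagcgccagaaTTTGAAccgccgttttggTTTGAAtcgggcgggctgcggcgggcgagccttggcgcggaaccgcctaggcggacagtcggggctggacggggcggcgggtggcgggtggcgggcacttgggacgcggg
Cdk1, chr10:69352901-69353112, minus strand: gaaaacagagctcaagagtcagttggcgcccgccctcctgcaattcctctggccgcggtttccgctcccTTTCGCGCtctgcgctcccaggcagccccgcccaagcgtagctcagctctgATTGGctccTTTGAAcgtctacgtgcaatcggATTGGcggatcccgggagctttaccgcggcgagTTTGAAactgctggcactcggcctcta
Pclaf, chr9:65890123-65890334, plus strand: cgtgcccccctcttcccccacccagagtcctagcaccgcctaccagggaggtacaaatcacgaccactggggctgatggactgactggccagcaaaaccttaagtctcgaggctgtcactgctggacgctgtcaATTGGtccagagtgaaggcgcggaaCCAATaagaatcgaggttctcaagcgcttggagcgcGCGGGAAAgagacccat
Mcm5, chr8:75109309-75109520, plus strand: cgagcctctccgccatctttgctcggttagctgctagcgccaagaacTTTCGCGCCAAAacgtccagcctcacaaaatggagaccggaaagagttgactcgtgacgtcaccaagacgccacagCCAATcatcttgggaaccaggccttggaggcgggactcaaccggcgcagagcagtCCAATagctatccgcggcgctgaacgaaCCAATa
Tyms, chr5:30073614-30073825, minus strand: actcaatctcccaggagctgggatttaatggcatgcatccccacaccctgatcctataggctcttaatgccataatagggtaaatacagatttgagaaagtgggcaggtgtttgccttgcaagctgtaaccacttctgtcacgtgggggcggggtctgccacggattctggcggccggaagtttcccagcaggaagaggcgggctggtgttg
Hist1h2ap, chr13:21833464-21833675, minus strand: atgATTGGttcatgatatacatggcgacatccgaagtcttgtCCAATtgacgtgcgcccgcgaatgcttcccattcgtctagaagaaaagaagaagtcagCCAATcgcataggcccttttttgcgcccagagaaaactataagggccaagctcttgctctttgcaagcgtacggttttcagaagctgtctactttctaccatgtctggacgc

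In Mki67, the classical proliferation marker, 2 CHR elements began 116 and 98 bases before the start, downstream of 3 CCAAT boxes. Cdk1, the kinase that starts mitosis, held CHR elements at 71 and 15 bases before the start, 1 of them beside a CCAAT box, and an E2F match at 131. Pclaf, a PCNA-binding protein, had no CHR element and an E2F match 5 bases before the start, and Mcm5, a subunit of the replicative helicase, had 2 overlapping E2F matches at 153 and 149. Tyms, thymidylate synthase, had none of the motifs in the window. Over the 13 mitosis promoters found, 11 held a CHR element, 12 a CCAAT box and 1 an E2F match. The 9 replication promoters held these in 1, 8 and 4, and the 3 histone promoters in 3, 3 and 0, with TATAAA in 2 histone promoters and in no promoter of the mitosis or replication genes. Among all 32851 promoters of the same length in the table, 19.2% held a CHR element, 37.4% a CCAAT box, 2.26% an E2F match and 13.6% TATAAA. A match is a description of these letters and not a measured site.

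Very few cells held UMIs of several mitosis genes. Of the 24227 annotated cells, 20049 (82.8%) had no UMI of any of the 16 mitosis genes, 3368 had a UMI of 1 of them, 436 of 2 and 85 of 3. From 4 genes upward the numbers per step stayed between 9 and 38 cells, and 33 cells had all 16. The 289 cells with 4 or more mitosis genes made 1.19% of the cells (95% Wilson interval 1.06% to 1.34%) and held 2.20% of all UMIs, with a median of 29995 UMIs per cell beside 15076 in the others. This set is a range on a count, not a cell type: 31 cells lay at 4 genes and 85 just outside at 3.

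**Figure D1:**
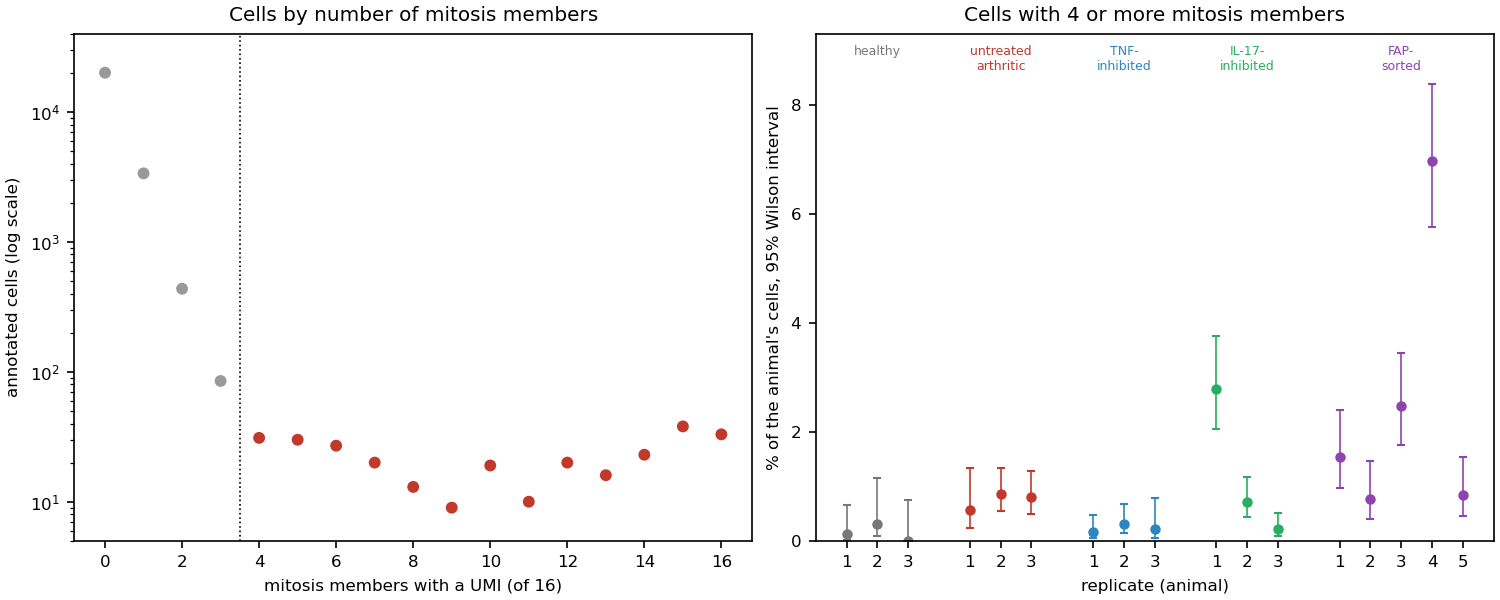
Left, the number of annotated cells (log scale) by how many of the 16 mitosis genes had a UMI, with the dotted line at the limit of 4. Right, the percent of each animal's cells with 4 or more (points; bars, 95% Wilson intervals, counting error only); FAP-sorted animal 4 stands at 6.96% and IL-17-inhibited animal 1 at 2.78%.

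The share of such cells was 0.118%, 0.317% and 0% in the healthy animals, where the 0 of 511 cells of animal 3 allows a share of up to 0.587%. It was 0.571%, 0.859% and 0.800% in the untreated arthritic, 0.163%, 0.308% and 0.219% in the TNF-inhibited, 2.78%, 0.720% and 0.217% in the IL-17-inhibited and 1.53%, 0.775%, 2.47%, 6.96% and 0.844% in the FAP-sorted animals. The 3 untreated arthritic animals lay above the 3 healthy and the 3 TNF-inhibited ones, while the IL-17-inhibited animals spread from below to far above them. FAP-sorted animal 4 alone held 102 of the 289 cells (35.3%) and IL-17-inhibited animal 1 held 41 (14.2%). As group means ± SD the shares were 0.145% ± 0.160 (n = 3), 0.743% ± 0.152 (n = 3), 0.230% ± 0.0731 (n = 3), 1.24% ± 1.36 (n = 3) and 2.52% ± 2.58 (n = 5) in the same order. Intervals cover counting error only, and depth differed: after each cell was thinned to 5000 UMIs, which left out 1532 shallower cells (265 healthy, 332 untreated arthritic, 186 with TNF inhibition, 257 with IL-17 inhibition and 492 FAP-sorted), the shares ran from 0 to 0.180% in healthy, from 0.121% to 0.535% in untreated arthritic, from 0 to 0.211% with TNF inhibition, from 0.0898% to 2.07% with IL-17 inhibition and from 0.484% to 4.82% after the FAP sort. The thinned ranges of the untreated arthritic group overlap those of the healthy and TNF-inhibited groups.

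These cells carried fibroblast RNA. Pdgfra, the fibroblast receptor for PDGF, had a UMI in 271 of the 289 cells (93.8%, beside 85.3% of the other cells). Col1a1 had one in 288 (99.7%, beside 96.1%), so it hardly sets these cells apart. By annotation 35 of the 289 were osteoblasts and 11 chondrocytes. Ptprc, which encodes CD45, had one in 2 cells (0.692%, beside 0.146%), Epcam in 4 and Pecam1 in 9. The summed level of 10 leukocyte markers was 13.1 CPM inside and 23.2 CPM outside the set, with 3 of the 10 at 0 inside, and of 5 neutrophil markers 87.2 and 57.4 CPM with none at 0. Muscle markers summed to 210.2 and 81.8 CPM, with 2 of 7 at 0 inside, although fewer cells inside (36.7%) than outside (48.5%) had any muscle UMI. Mural markers summed to 116.3 and 75.7 CPM and osteoblast markers to 1125 and 654 CPM, with none of 6 at 0 in either list. Doublets were not called, and their part in these cells was not tested.

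How far a gene was bound to these cells divided the module. The mitosis genes define the set, so the 48.3% (Aurka) to 92.1% (Bub1) of their UMIs that lay in it is a description. Pclaf, which the set did not use, had 91.1% of its 1829 UMIs there, the 3 histone genes had 67.7% to 77.8%, and Stmn1, which destabilizes microtubules, had 63.6%. The other replication genes were spread wider: Mcm5 had 41.1%, Rrm2 41.0%, Mcm2 22.1%, Mcm3 18.8%, Rrm1 17.7%, Tyms 13.7%, Mcm6 13.3% and Pcna 4.94%. Cdkn2a had 7.97% and Ccnd1 6.11% of their UMIs there. Cdkn1a had 1.19%, less than the set's 2.20% of all UMIs. Its level inside was 208 CPM against 387 CPM outside, a ratio of 0.536 in plain CPM over cells pooled from all groups. The set draws on the groups unevenly: FAP-sorted animals held 172 of its 289 cells. They also had the lowest Cdkn1a in summed fibroblasts (198 to 304 CPM), and the part of group make-up in this ratio was not tested.

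**Figure D2:**
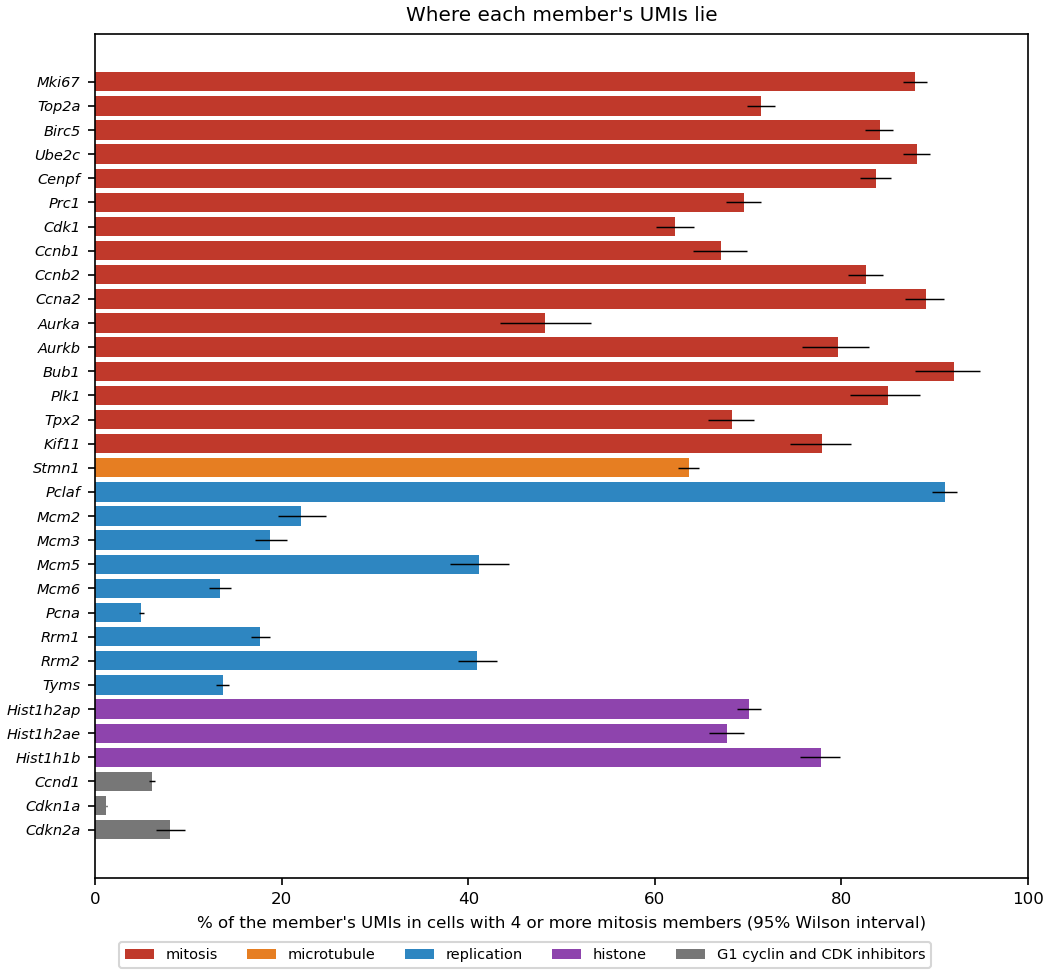
Percent of each gene's UMIs, over all annotated cells, that lay in the 289 cells with 4 or more mitosis genes (bars; lines, 95% Wilson intervals, counting error only), coloured by role. The values run from 1.19% for Cdkn1a to 92.1% for Bub1, with Pclaf at 91.1% and Pcna at 4.94%.

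Inside the set, histone UMIs went up with the number of mitosis genes. In the 108 cells with 4 to 7 mitosis genes the median cell had 0 UMIs of the 3 histone genes, in the 71 cells with 8 to 12 it had 1, and in the 110 cells with 13 to 16 it had 16. Pclaf had a UMI in 52.8%, 80.3% and 97.3% of these cells. Cdkn1a stood at 173, 232 and 221 CPM, below the 387 CPM outside the set at each step. These cells also differ in depth, and the cells inside and outside the set differ in group make-up, so the steps are a description. As a check on free RNA, Mki67 had a UMI in 0.860% of the 20223 cells with no other mitosis gene (median 14241 UMIs) and in 84.4% of the 275 cells with 4 or more others (median 30308 UMIs).

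The deposited S.Score and G2M.Score, whose gene sets are not given in the sources used here and which may contain these genes, followed the set only in part. G2M.Score was above 0 in 97.9% of the 289 cells and S.Score in 85.5%, and the mean G2M.Score went from -0.0244 in cells with no mitosis gene to 0.798 in cells with all 16. A score above 0 was however common without any mitosis RNA: G2M.Score was above 0 in 19.2% and S.Score in 42.6% of the 20049 cells with no mitosis gene. By animal, G2M.Score was above 0 in 23.6% to 29.0% of healthy, 14.0% to 15.98% of untreated arthritic, 13.01% to 23.4% of TNF-inhibited, 13.9% to 16.5% of IL-17-inhibited and 29.1% to 41.2% of FAP-sorted cells. Healthy animals thus ranked above the untreated arthritic ones by this score and below them by the share of cells with 4 or more mitosis genes. Among cells with no mitosis gene the order was alike, with 23.5% to 27.5% in healthy and 12.5% to 15.2% in untreated arthritic animals. No cycling is read from the scores here, and the median UMIs per cell, 9366 to 10463 in healthy and 14742.5 to 16340 in untreated arthritic animals, moved with them and their part was not tested.

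For the mitosis genes given by animal here, FAP-sorted animal 4 was highest, and Mki67 was low in healthy and TNF-inhibited animals. IL-17-inhibited animal 1 came second except for Cdk1, where FAP-sorted animal 3 lay above it. Mki67 measured 1.16, 0.800 and 0.585 CPM in the healthy animals, 4.07, 5.03 and 6.51 in the untreated arthritic, 0.472, 1.65 and 2.02 in the TNF-inhibited, 20.8, 2.96 and 0.432 in the IL-17-inhibited and 5.83, 3.42, 8.83, 31.7 and 4.10 in the FAP-sorted animals. All 3 untreated arthritic animals lay above the healthy and TNF-inhibited animals, and the IL-17-inhibited group held both the second highest and the lowest value of the 17. Top2a stood at 3.14, 2.88 and 2.73 CPM in the healthy animals, 3.05, 6.59 and 6.76 in the untreated arthritic, 2.43, 4.02 and 5.80 in the TNF-inhibited, 21.2, 5.77 and 2.57 in the IL-17-inhibited and 8.71, 4.74, 14.99, 35.4 and 3.55 in the FAP-sorted animals. This topoisomerase untangles sister DNA, and untreated arthritic animal 1 lay within the healthy range, while IL-17-inhibited animal 1 and FAP-sorted animal 4 again led. Cdk1 reached 0.932, 0.960 and 0 CPM in the healthy animals, 2.35, 3.42 and 3.08 in the untreated arthritic, 1.79, 2.97 and 2.20 in the TNF-inhibited, 11.5, 3.52 and 1.65 in the IL-17-inhibited and 7.36, 2.87, 12.3, 25.4 and 4.23 in the FAP-sorted animals. Every arthritic animal lay above every healthy one for Cdk1, although healthy animal 3 had no UMI of it. Ccnb1 had 1.75, 0.800 and 0.390 CPM in the healthy animals, 0.782, 1.59 and 2.17 in the untreated arthritic, 0.675, 1.20 and 0.966 in the TNF-inhibited, 7.98, 1.24 and 0.567 in the IL-17-inhibited and 3.46, 1.48, 3.49, 9.48 and 2.25 in the FAP-sorted animals. Cyclin B1 is the partner of Cdk1, and its healthy and untreated arthritic ranges overlapped. Ube2c gave 3.03, 0.480 and 0.780 CPM in the healthy animals, 1.02, 2.34 and 2.53 in the untreated arthritic, 0.337, 0.720 and 1.05 in the TNF-inhibited, 13.4, 2.57 and 0.324 in the IL-17-inhibited and 8.13, 2.02, 10.1, 28.7 and 3.14 in the FAP-sorted animals. Ube2c works with the anaphase-promoting complex, and here healthy animal 1 lay above all untreated arthritic animals. The other 11 mitosis genes had group means of 0.146 (Bub1) to 2.03 CPM (Prc1) in healthy and 0.393 (Bub1) to 3.85 CPM (Cenpf) in untreated arthritic animals. Stmn1 ran from 6.63 to 9.28 CPM in healthy, 9.38 to 12.1 in untreated arthritic, 5.26 to 10.2 with TNF inhibition, 6.27 to 34.8 with IL-17 inhibition and 9.94 to 62.0 after the FAP sort.

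**Figure D3:**
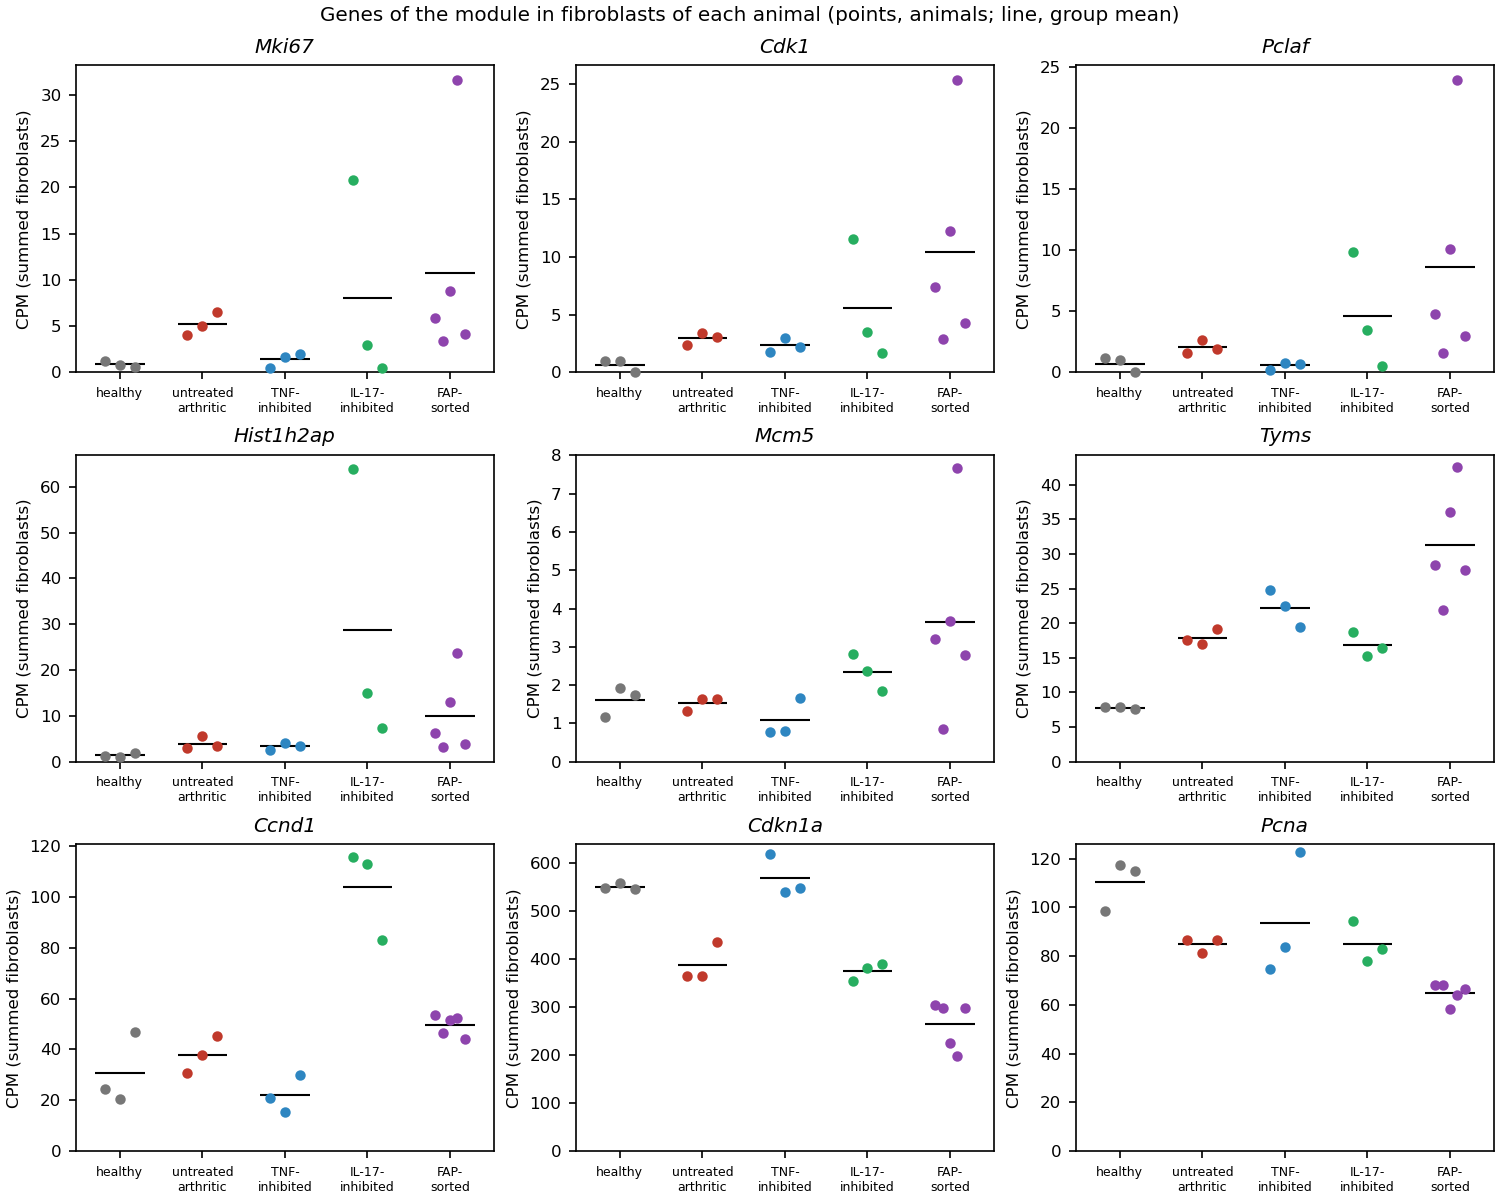
CPM of 9 genes in the summed fibroblasts of each of the 17 animals (points) with the group mean (line), each panel on its own linear scale from 0. Mki67, Cdk1, Pclaf and Hist1h2ap are highest in FAP-sorted animal 4 or IL-17-inhibited animal 1, whereas Tyms is below 8 CPM in the 3 healthy animals and Ccnd1 above 80 CPM in the 3 IL-17-inhibited animals.

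The replication genes did not share 1 pattern. Pclaf measured 1.16, 0.960 and 0 CPM in the healthy animals, 1.56, 2.61 and 1.90 in the untreated arthritic, 0.202, 0.780 and 0.703 in the TNF-inhibited, 9.87, 3.49 and 0.513 in the IL-17-inhibited and 4.74, 1.55, 10.1, 23.96 and 2.94 in the FAP-sorted animals. As for Mki67, the untreated arthritic animals lay above the healthy and TNF-inhibited ones for Pclaf. Tyms stood at 7.92, 7.84 and 7.60 CPM in the healthy animals, 17.5, 17.1 and 19.2 in the untreated arthritic, 24.8, 22.5 and 19.4 in the TNF-inhibited, 18.8, 15.3 and 16.4 in the IL-17-inhibited and 28.4, 21.97, 36.1, 42.6 and 27.7 in the FAP-sorted animals. Thymidylate synthase makes the thymidine nucleotide for DNA, and its healthy values lay close together and below every arthritic animal. Pcna reached 98.7, 117 and 115 CPM in the healthy animals, 86.6, 81.3 and 86.6 in the untreated arthritic, 74.9, 83.8 and 123 in the TNF-inhibited, 94.4, 78.2 and 82.9 in the IL-17-inhibited and 68.1, 68.3, 58.3, 64.3 and 66.4 in the FAP-sorted animals. The sliding clamp PCNA was highest in TNF-inhibited animal 3 and the healthy animals and lowest in the 5 FAP-sorted animals. Mcm2 gave 1.16, 2.08 and 1.75 CPM in the healthy animals, 1.25, 2.13 and 2.23 in the untreated arthritic, 2.29, 1.86 and 2.11 in the TNF-inhibited, 2.9973, 2.49 and 2.22 in the IL-17-inhibited and 3.14, 2.95, 3.06, 5.38 and 2.59 in the FAP-sorted animals. Mcm5 had 1.16, 1.92 and 1.75 CPM in the healthy animals, 1.33, 1.65 and 1.63 in the untreated arthritic, 0.776, 0.810 and 1.67 in the TNF-inhibited, 2.82, 2.37 and 1.84 in the IL-17-inhibited and 3.20, 0.854, 3.68, 7.67 and 2.80 in the FAP-sorted animals. These helicase subunits were low, with healthy and untreated arthritic ranges that overlapped, and FAP-sorted animal 4 was highest for both. Rrm1 ranged over 16.2, 12.6 and 15.2 CPM in the healthy animals, 11.5, 12.7 and 14.2 in the untreated arthritic, 9.41, 8.85 and 9.93 in the TNF-inhibited, 14.6, 12.7 and 10.2 in the IL-17-inhibited and 11.7, 10.8, 14.7, 20.01 and 12.2 in the FAP-sorted animals. Rrm1, the large subunit of ribonucleotide reductase, had overlapping healthy and untreated arthritic values and lower TNF-inhibited ones. The remaining 3, Mcm3, Mcm6 and Rrm2, had group means between 3.21 CPM (Rrm2, untreated arthritic) and 9.61 CPM (Mcm6, healthy).

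Of the histone genes, Hist1h2ap was set apart in the IL-17-inhibited animals. Hist1h2ap measured 1.16, 1.12 and 1.95 CPM in the healthy animals, 2.89, 5.57 and 3.38 in the untreated arthritic, 2.53, 4.02 and 3.51 in the TNF-inhibited, 63.9, 14.9 and 7.38 in the IL-17-inhibited and 6.34, 3.11, 13.03, 23.7 and 3.96 in the FAP-sorted animals. All 3 IL-17-inhibited animals lay above the untreated arthritic and TNF-inhibited ones for this H2A gene, animal 1 by far. Hist1h1b stood at 0.349, 0.640 and 0.390 CPM in the healthy animals, 1.25, 1.23 and 2.53 in the untreated arthritic, 0.574, 2.04 and 1.76 in the TNF-inhibited, 7.93, 2.51 and 0.513 in the IL-17-inhibited and 1.79, 2.33, 7.88, 16.4 and 1.98 in the FAP-sorted animals. For this linker histone the IL-17-inhibited range included the untreated arthritic and TNF-inhibited ranges, and all 3 healthy animals were below 1 CPM. Hist1h2ae, another H2A gene, ran from 0.4658 to 1.60 CPM in healthy, 1.41 to 3.56 in untreated arthritic, 2.40 to 2.99 with TNF inhibition, 2.54 to 21.3 with IL-17 inhibition and 1.01 to 16.6 after the FAP sort. The H2A genes of this cluster have near-identical copies, so the count of a single copy is uncertain.

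The regulators of G1 divided the groups in other ways. Ccnd1 measured 24.5, 20.6 and 46.8 CPM in the healthy animals, 30.7, 37.8 and 45.4 in the untreated arthritic, 21.1, 15.2 and 30.1 in the TNF-inhibited, 116, 113 and 82.9 in the IL-17-inhibited and 53.6, 46.6, 51.7, 52.4 and 44.3 in the FAP-sorted animals. The IL-17-inhibited animals stood apart from all others. Healthy animal 3, from the same library as these, lay above the untreated arthritic animals and above healthy animals 1 and 2. Cdkn1a stood at 547, 559 and 546 CPM in the healthy animals, 364, 365 and 436 in the untreated arthritic, 618, 539 and 548 in the TNF-inhibited, 354, 382 and 391 in the IL-17-inhibited and 304, 299, 225, 198 and 299 in the FAP-sorted animals. For p21 the healthy and TNF-inhibited animals formed a high band, the untreated arthritic and IL-17-inhibited animals a lower one, and the FAP-sorted animals lay below these. Cdkn2a gave 1.05, 1.28 and 0.390 CPM in the healthy animals, 2.27, 1.86 and 2.56 in the untreated arthritic, 3.24, 1.05 and 0.966 in the TNF-inhibited, 4.28, 2.78 and 2.30 in the IL-17-inhibited and 6.72, 3.88, 5.11, 6.43 and 2.87 in the FAP-sorted animals. Cdkn2a encodes the p16-INK4a inhibitor and the ARF protein, and its untreated arthritic values lay above the healthy ones at low counts.

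In untreated arthritic against healthy fibroblasts, a comparison that asks what arthritis changed, Tyms was higher and Cdkn1a lower. Tyms rose by a log2 fold change of 1.21 ± 0.13 (SE; edgeR adjusted p = 1.8e-05, 3 of 3 animals above the healthy mean) and Cdkn1a fell, with -0.50 ± 0.09 (edgeR adjusted p = 0.00162, 0 of 3 above). No other of the 31 genes tested passed, so 1 was higher and 1 lower, beside 14.4% of all 14348 genes tested called higher and 14.3% called lower (Bub1 was too low to test). With no scaling beyond the library total, an alternative chosen after seeing the data, the split was 1 higher and 3 lower. The 15 mitosis genes had positive estimates from 0.39 to 2.57 with a median of 1.39, beside 0.01 over all genes, and none passed: Mki67 had 2.57 ± 1.30 (edgeR adjusted p = 0.160) and Cdk1 2.12 ± 0.86 (edgeR adjusted p = 0.0846). Of the 9 replication genes 3 had positive estimates, with a median of -0.19, and Pcna had -0.37 ± 0.15 (edgeR adjusted p = 0.0805). The histone genes had a median of 1.59 and Ccnd1 0.35 ± 0.29 (edgeR adjusted p = 0.401).

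The same contrast called other genes in the wider lists, in shares below the 14.4% higher and 14.3% lower over all genes except for the p53 targets that rose (18.2%). Of 61 further mitosis genes 5 rose (8.20%), Ncaph (3.15 ± 0.86), Cenpw (0.93 ± 0.24), Smc4 (0.69 ± 0.19), Hmgb2 (0.64 ± 0.15) and Lmnb1 (0.55 ± 0.19), with values as log2 fold change ± SE, and Cks1b fell (-0.57 ± 0.14), with a list median of 0.75. Ncaph and Smc4 encode subunits of condensin, which packs chromosomes. Of 49 further replication genes 4 rose (8.16%), Tk1 (2.49 ± 0.77), Cdt1 (0.76 ± 0.20), Dnmt1 (0.66 ± 0.15) and Dbf4 (0.66 ± 0.23), and 4 fell, among them Cdc6 (-1.09 ± 0.37), Pola1 (-0.65 ± 0.17) and Orc6 (-0.41 ± 0.13), with a median of -0.01. Cdt1 and Cdc6 both load the helicase on origins and moved in opposite directions. Of 31 further histone genes 2 rose, Hist1h4d (0.36) and Hist1h3i, with a list median of -0.12. Hist1h3i had no UMI in any healthy animal. Its untreated arthritic mean of 0.423 CPM was 2.82 times a floor of 3 UMIs over the healthy group (0.150 CPM). The lowest untreated arthritic animal had 0.156 CPM, close to that floor. Of 28 genes of the Rb and E2F list Cdk6, Cdkn2b and Cdk4 rose (1.16, 1.12 and 0.60) and Ccnd2 fell (-0.36), with a median of -0.04. Of 22 p53 targets Ccng1, Trp53inp1, Bax and Fas rose (0.82, 0.79, 0.61 and 0.37) and Bbc3 and Gadd45b fell (-0.87 and -0.76), with a median of 0.07. Cdkn1a, itself a p53 target, fell while these 4 rose.

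Both calls were kept without each of the 6 animals in turn. Neither was kept in the Il6+ class alone, the class with many cells in each group, where Tyms had 0.04 (edgeR adjusted p = 0.962) and Cdkn1a -0.34 (edgeR adjusted p = 0.185). The make-up of the fibroblasts moved with the contrast: the Mmp3+ class made 3.70% of healthy and 38.8% of untreated arthritic fibroblasts on average, and the Pi16+ class 43.0% and 1.20%. Of 7 keratinocyte markers 6 were lower (summed level 123 to 327 CPM in healthy and 30.5 to 33.9 CPM in untreated arthritic animals, none at 0), 2 of the 3 neutrophil markers tested were higher (15.6 to 17.1 and 44.0 to 55.1 CPM over 5 markers, none at 0) and 2 of 5 leukocyte markers were higher (4.48 to 6.29 and 18.5 to 26.6 CPM over 10 markers, of which 2 and 1 were at 0). The part of class make-up and of these markers in the result was not tested.

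Pooling the 9 arthritic animals of the unsorted libraries and comparing them with the healthy animal of their own library gave 4 genes higher and 3 lower. Tyms (1.28 ± 0.12, edgeR adjusted p = 5.7e-06), Hist1h2ap (2.75 ± 0.97, edgeR adjusted p = 0.0375), Cdk1 (2.26 ± 0.84, edgeR adjusted p = 0.0473) and Ccnd1 (0.64 ± 0.23, edgeR adjusted p = 0.0419) rose. Cdkn1a (-0.35 ± 0.10, edgeR adjusted p = 0.0149), Rrm1 (-0.35 ± 0.12, edgeR adjusted p = 0.0308) and Pcna (-0.33 ± 0.12, edgeR adjusted p = 0.0424) fell. Over all genes 20.1% were called higher and 20.1% lower. With no scaling beyond the total the split was 2 higher and 5 lower. Cdk1 and Tyms were above the healthy mean in 9 of 9 animals. Mki67 did not pass (2.32 ± 1.30, edgeR adjusted p = 0.176), and the 15 mitosis genes tested had a median of 1.56 beside 0.01 over all genes.

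This comparison shares animals with the preceding one and depended on single healthy animals. Without healthy animal 1, 2 or 3 the module had 1, 3 and 1 genes called, and without untreated arthritic animal 2 or 3 it had 3 and 4. The fit with no library term called 2. Without healthy animal 3, Cdk1 had 1.52 (edgeR adjusted p = 0.219), Hist1h2ap 1.72 (edgeR adjusted p = 0.317), Ccnd1 0.38 (edgeR adjusted p = 0.300) and Cdkn1a -0.24 (edgeR adjusted p = 0.146). Rrm1 was not called without healthy animal 1, 2 or 3 (edgeR adjusted p = 0.100, 0.148 and 0.0714), nor Pcna without any of them (0.0793, 0.148 and 0.189). Cdkn1a had an edgeR adjusted p = 0.130 without healthy animal 1, where Tyms was the 1 gene called. The edgeR adjusted p of Cdk1, Hist1h2ap, Ccnd1 and Pcna lay between 0.0507 and 0.0673 in each fit without an arthritic animal that lost them. Tyms kept its call without each of the 12 animals. In the wider lists, beside 20.1% of all genes in each direction, 8 mitosis genes rose (13.1%), led by Ncaph (3.03), Cenpw (1.10) and Hmgb2 (0.79), and 4 fell, among them the tubulin genes Tuba1b (-0.35) and Tubb4b (-0.32). The replication list had 8 higher (16.3%), led by Tk1 (2.40) and Hells (0.90), and 6 lower, led by Cdc6 (-0.97) and Pola1 (-0.80). The Rb and E2F list had 5 higher, led by the kinase inhibitor Cdkn2b (1.39) and the kinase Cdk6 (1.35), and 3 lower, and the p53 list had 8 higher, led by Ccng1 (1.01), and 5 lower, led by Bbc3 (-0.69). Histone genes other than the 3 above had 5 higher and 1 lower of 31. All 4 Pi16 markers were lower here, and their part was not tested.

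In TNF-inhibited against untreated arthritic fibroblasts, which also come from different libraries, Cdkn1a was higher, with 0.53 ± 0.09 (edgeR adjusted p = 0.0128, 3 of 3 animals above the untreated mean). No other of the 31 genes tested was called, so 1 was higher and 0 lower beside 2.53% of all genes higher and 3.02% lower, and 7 of the 31 had an unadjusted p under 0.05. With no scaling beyond the total the split was 1 and 1. Mitosis genes had negative estimates in 15 of 15 with a median of -1.07, beside -0.0025 over all genes, and none passed: Mki67 had -2.06 ± 0.97 (edgeR adjusted p = 0.216) and Ccnb2 -1.91 ± 0.84 (edgeR adjusted p = 0.187). Rrm1 had -0.48 ± 0.14 (edgeR adjusted p = 0.0600), Pclaf -1.94 ± 0.88 (edgeR adjusted p = 0.201) and Ccnd1 -0.84 ± 0.28 (edgeR adjusted p = 0.0898). Other p53 targets moved with Cdkn1a: 6 of 22 rose and none fell, with Gdf15 (1.59), Eda2r (0.79), Zmat3 (0.76), Bax (0.59) and Ccng1 (0.57) among them and a list median of 0.34. These calls were not examined in the alternatives given below for Cdkn1a. The histone genes Hist1h2bc (1.51), Hist1h4i (1.26) and Hist1h1c (1.17) rose of 31, with a median of 0.07. Of 49 replication genes 2 fell, among them Mcm4 (-0.53), and none rose (median -0.11), of 61 mitosis genes Pttg1 (0.32) rose and none fell (median -0.77), and none of the Rb and E2F list was called (median -0.10).

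The Cdkn1a call was lost without untreated arthritic animal 1 (0.49, edgeR adjusted p = 0.0690) or animal 2 (0.49, edgeR adjusted p = 0.0570), and without TNF-inhibited animal 3 the module had 3 genes called. In the Il6+ class alone the direction turned (-0.14, edgeR adjusted p = 0.703), and with library as a term, set by 1 healthy animal per library, it had an edgeR adjusted p = 0.872. By class, in plain CPM, Cdkn1a stood at 367 ± 46.4 in untreated arthritic and 609 ± 54.4 in TNF-inhibited Mmp3+ fibroblasts (SD, n = 3 each), and at 401 ± 42.5 and 343 ± 78.6 in Il6+ fibroblasts. Of 5 muscle markers tested 3 were lower (166 to 223 CPM untreated, 70.2 to 101 CPM TNF-inhibited over 7 markers, of which 0 and 1 were at 0). The Mmp3+ class made 38.8% of untreated arthritic and 50.4% of TNF-inhibited fibroblasts on average and the Il6+ class 47.8% and 30.4%. The part of the markers and of the make-up was not tested.

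In IL-17-inhibited against untreated arthritic fibroblasts, again of different libraries, Ccnd1 and Hist1h2ap were higher. Ccnd1 had 1.44 ± 0.27 (edgeR adjusted p = 0.00863) and Hist1h2ap 2.79 ± 0.61 (edgeR adjusted p = 0.0174), each in 3 of 3 animals, and no gene of the 31 fell. That is 2 higher and 0 lower, beside 3.8% of all genes higher and 4.65% lower. Hist1h2ae had 1.76 ± 0.57 (edgeR adjusted p = 0.0745) and Mki67 0.56 ± 0.82 (edgeR adjusted p = 0.727). The 15 mitosis genes, all with positive estimates and none called, had a median of 0.85, beside 0.01 over all genes. For each of them IL-17-inhibited animal 1 lay above the untreated arthritic mean and animal 3 below it, with animal 2 on either side. Mki67 had 20.8, 2.96 and 0.432 CPM in animals 1, 2 and 3, beside an untreated arthritic mean of 5.20 CPM. The genes are expressed in the same cells, so these are not separate signs. Cdkn1a (-0.05 ± 0.09, edgeR adjusted p = 0.799) and Pcna (0.00 ± 0.15, edgeR adjusted p = 0.993) had estimates near 0. Beside Ccnd1, its partner kinase gene Cdk6 rose (0.90) and so did Cdkn2b (0.88), the 2 genes called of 28 in the Rb and E2F list (median 0.03). Of the other lists, Gins2 rose (0.65) and Msh6 fell (-0.48) of 49 replication genes (median 0.17), Hist1h2bc rose (0.71) of 31 histone genes (median 0.16), Fas (0.54) and Plk2 (0.43) rose of 22 p53 targets (median 0.05), and none of 61 mitosis genes was called (median 0.33).

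Ccnd1 kept its call without each of the 6 animals and lost it only with library as a term (edgeR adjusted p = 0.851), among the alternatives run. The healthy animal of the IL-17-inhibited library, animal 3, was the highest healthy animal for Ccnd1 (46.8 CPM) and Hist1h2ap (1.95 CPM). Hist1h2ap lost it without untreated arthritic animal 1, 2 or 3 (edgeR adjusted p = 0.0642, 0.0522 and 0.0679). Keratinocyte markers (5 of 7 higher; 30.5 to 33.9 CPM untreated, 71.9 to 90.0 CPM IL-17-inhibited, none at 0), osteoblast markers (4 of 6 higher; 55.1 to 167 and 123 to 198 CPM, none at 0) and muscle markers (5 of 5 tested lower; 166 to 223 and 46.3 to 76.7 CPM over 7 markers, of which 0 and 2 were at 0) moved with this contrast, and their part was not tested.

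Between the inhibitors, with the same animals as above, 4 genes were higher and 2 lower under IL-17 inhibition than under TNF inhibition. Ccnd1 (2.28 ± 0.28, edgeR adjusted p = 0.000702), Hist1h2ap (3.10 ± 0.63, edgeR adjusted p = 0.0106), Mcm5 (1.24 ± 0.29, edgeR adjusted p = 0.0225) and Pclaf (3.06 ± 0.85, edgeR adjusted p = 0.0441) were higher. Cdkn1a (-0.58 ± 0.09, edgeR adjusted p = 0.00356) and Tyms (-0.40 ± 0.11, edgeR adjusted p = 0.0382) were lower. Over all genes 4.54% were called higher and 3.05% lower. With no scaling beyond the total the split was 7 higher and 1 lower. The 15 mitosis genes had positive estimates with a median of 1.95, beside -0.01 over all genes, and none passed. The smallest edgeR adjusted p was 0.0822, and Mki67 had 2.61 ± 0.96 (edgeR adjusted p = 0.123). Of the 31 genes 24 had an unadjusted p under 0.05. IL-17-inhibited animal 3 lay below the TNF-inhibited mean for Mki67 (0.432 beside 1.38 CPM) and for each other mitosis gene tested except Plk1. Of 49 replication genes 4 were higher, among them Tk1 (2.14), Gmnn (1.23) and Lig1 (0.66), and none lower (median 0.23). Of 22 p53 targets 8 were lower, led by Trp53inp1 (-0.90), Eda2r (-0.76) and Zmat3 (-0.59), and Plk2 was higher (0.47; median -0.25). Hist1h3d (-2.95), Hist2h3c1 (-1.26), Hist1h1c (-1.01) and Hist1h2bc (-0.80) were lower of 31 histone genes (median 0.11), opposite in sign to Hist1h2ap. Cdk6 (1.25) and Cdkn2b (0.86) were higher of 28 genes of the Rb and E2F list (median 0.09), and none of 61 further mitosis genes was called (median 1.11).

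Ccnd1, Hist1h2ap and Cdkn1a kept their calls without each of the 6 animals. Without IL-17-inhibited animal 1, Pclaf had 1.86 (edgeR adjusted p = 0.176) and Mcm5 1.08 (edgeR adjusted p = 0.0706). Without TNF-inhibited animal 1 or 2, none of Pclaf, Mcm5 and Tyms was called (edgeR adjusted p = 0.126 and 0.110, 0.0780 and 0.118, 0.120 and 0.112), and neither was any of them without IL-17-inhibited animal 2 (Pclaf 0.0825, Mcm5 0.0753). Pclaf had an edgeR adjusted p = 0.0704 without TNF-inhibited animal 3, and Tyms one of 0.103 without IL-17-inhibited animal 3. Without IL-17-inhibited animal 2, Tyms had -0.34 (edgeR adjusted p = 0.158), and its direction turned in the Il6+ class alone (0.21, edgeR adjusted p = 0.785). The count of genes called went from 3 without TNF-inhibited animal 2 or IL-17-inhibited animal 2 to 20 without IL-17-inhibited animal 3, the animal with the lowest Mki67 of its group. With library as a term none was called, where Ccnd1 had an edgeR adjusted p = 0.702. Of 6 osteoblast and 6 mural markers 3 each were higher (mural 53.2 to 57.0 and 83.2 to 136 CPM, none at 0), and their part was not tested.

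In FAP-sorted against unsorted untreated arthritic fibroblasts 8 of the 32 genes were higher and 2 lower. The share higher was close to, and the share lower was below, that over all 13418 genes tested, of which 21.3% were higher and 21.5% lower. Ube2c (2.34 ± 0.76, edgeR adjusted p = 0.0304), Birc5 (1.93 ± 0.69, edgeR adjusted p = 0.0444) and Cdk1 (1.82 ± 0.61, edgeR adjusted p = 0.0353) rose among the mitosis genes, Pclaf (2.10 ± 0.76, edgeR adjusted p = 0.0465), Mcm2 (0.82 ± 0.27, edgeR adjusted p = 0.0308) and Tyms (0.79 ± 0.18, edgeR adjusted p = 0.00579) among the replication genes, and Ccnd1 (0.36 ± 0.11, edgeR adjusted p = 0.0270) and Cdkn2a (1.16 ± 0.27, edgeR adjusted p = 0.00636) among the regulators. Pcna (-0.41 ± 0.07, edgeR adjusted p = 0.00112) and Cdkn1a (-0.57 ± 0.14, edgeR adjusted p = 0.00949) fell, in 5 of 5 animals each. Birc5 encodes survivin, a subunit of the complex that corrects chromosome attachment, and stood at 2.66, 2.79 and 3.38 CPM in untreated arthritic and 8.07, 2.41, 11.2, 29.7 and 3.89 CPM in FAP-sorted animals, so the groups overlapped. Mki67 did not pass (1.06 ± 0.66, edgeR adjusted p = 0.214), nor did Plk1 (2.13 ± 0.81, edgeR adjusted p = 0.0561) or Hist1h1b (1.86 ± 0.75, edgeR adjusted p = 0.0671). All 16 mitosis genes had positive estimates, with a median of 1.33 beside -0.01 over all genes.

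**Figure D4:**
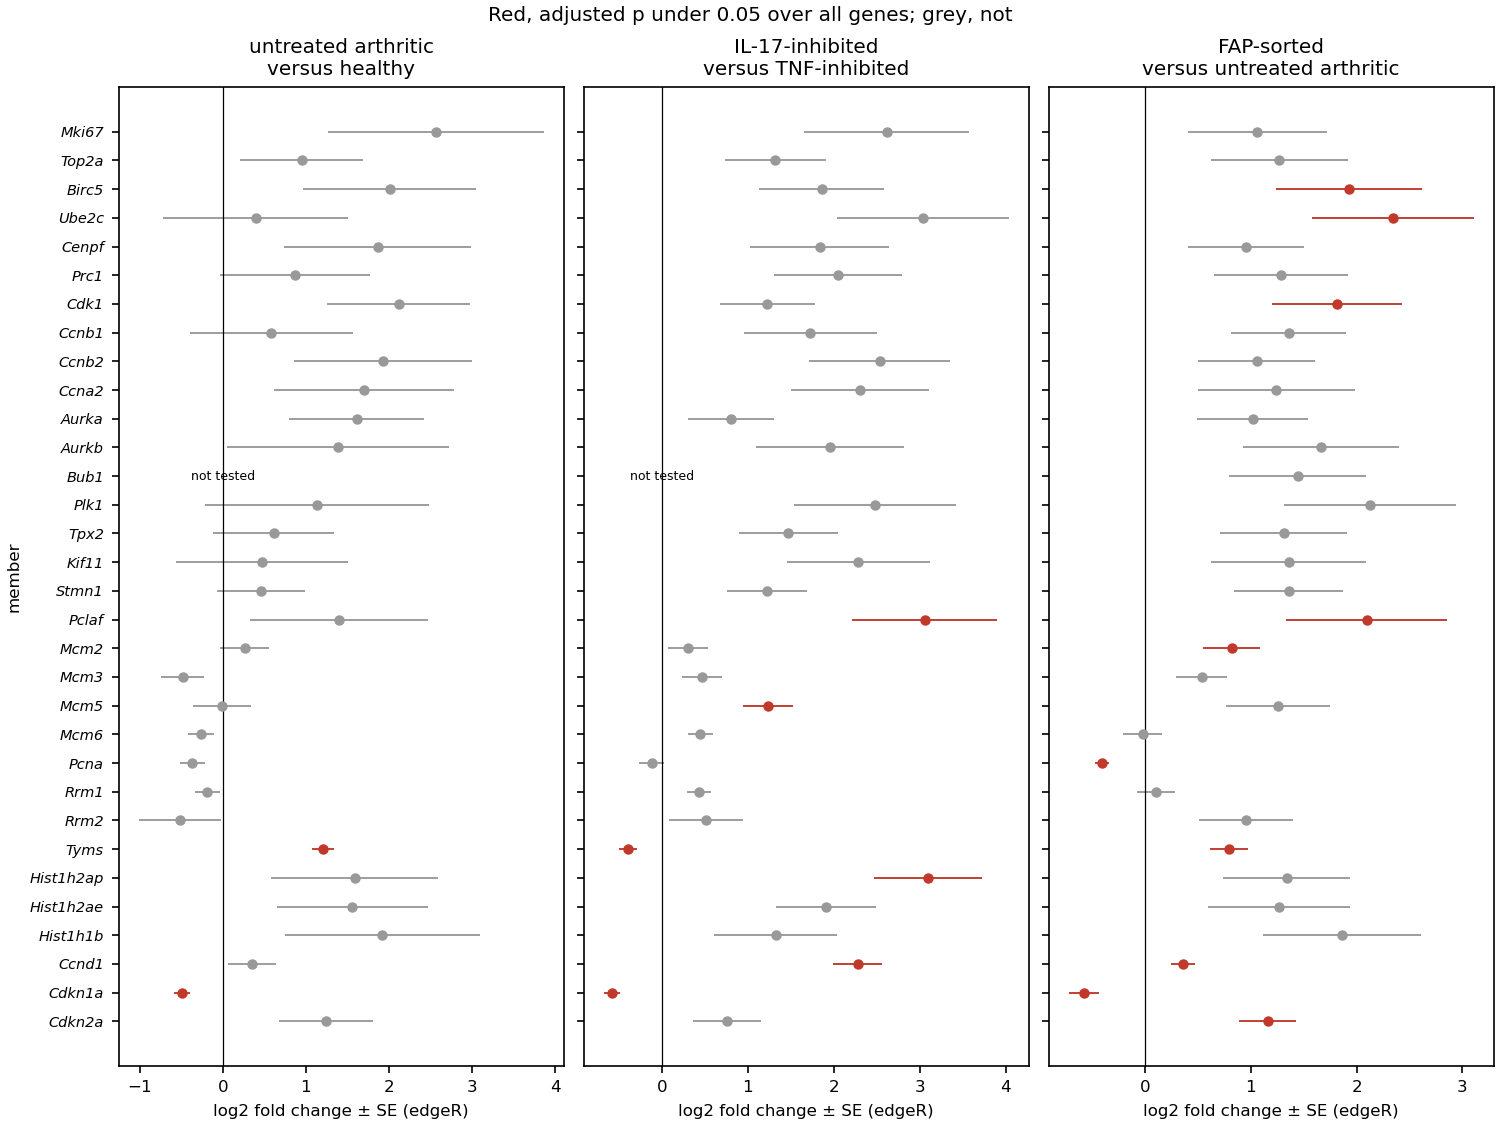
Log2 fold change ± SE (edgeR) of each gene in 3 of the 6 comparisons; red marks an adjusted p under 0.05 over all genes tested, grey does not, and Bub1 was not tested in the unsorted libraries. Mitosis genes lie to the right of 0 in each panel with wide errors, and Tyms and Cdkn1a are called in each of the 3 panels; panels share animals.

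The wider lists in the FAP-sorted contrast are to be read beside the 21.3% of all genes higher and 21.5% lower. They had 11 of 49 replication genes higher (22.4%), led by Mcm10 (1.502), Gmnn (1.43) and Gins2 (1.02), and 3 lower, led by Msh6 (-0.59), with a median of 0.29. Of 61 mitosis genes Nek2 (1.4995), Cdca8 (1.49), Espl1 (0.98) and Cks1b (0.76) rose and Kif22 (-0.53) and Lmnb1 (-0.38) fell (median 0.83). Of 29 genes of the Rb and E2F list 6 rose, among them Cdkn3 (1.63), Cdkn2b (1.12) and E2f1 (0.78), and 5 fell, among them the pocket protein genes Rb1 (-0.53) and Rbl2 (-0.34) (median 0.15). Of 22 p53 targets 2 rose and 5 fell, led by Eda2r (-0.82) and Trp53inp1 (-0.58) (median -0.11), and of 23 histone genes 3 rose and 5 fell (median 0.19).

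Tyms, Pcna, Cdkn1a and Cdkn2a kept their calls without each of the 8 animals. Ube2c was lost without untreated arthritic animal 1, 2 or 3 (edgeR adjusted p = 0.0902, 0.0834 and 0.0757), as were Cdk1 (0.0965, 0.0861 and 0.0975), Birc5 (0.106, 0.125 and 0.102), Pclaf (0.115, 0.0963 and 0.131) and Mcm2 (0.0937, 0.0656 and 0.0520). Ccnd1 was lost without untreated arthritic animal 1 or 2 (0.0961 and 0.0837) and FAP-sorted animal 1 or 3 (0.0521 and 0.0511). Without FAP-sorted animal 4, which was highest for the mitosis genes printed above, Pclaf had an edgeR adjusted p = 0.0702 and Birc5 one of 0.0537. Without FAP-sorted animal 3 the edgeR adjusted p was 0.0622 for Cdk1, 0.0765 for Pclaf and 0.0679 for Birc5, and without animal 1 it was 0.0520 for Birc5. The count went from 4 without untreated arthritic animal 1 or 2 to 20 without FAP-sorted animal 2, and was 5 without untreated arthritic animal 3 and 6 without FAP-sorted animal 3. Neutrophil markers (5 of 5 higher; 44.0 to 55.1 CPM untreated, 106 to 137 CPM FAP-sorted, none at 0), muscle markers (5 of 5 tested lower; 166 to 223 and 2.73 to 4.04 CPM over 7 markers, of which 0 and 2 were at 0) and lining markers (4 of 4 lower; 6836 to 10159 and 5003 to 6216 CPM, none at 0) moved with the sort, and so did class make-up, with the Mmp3+ class at 38.8% of untreated arthritic and 61.5% of FAP-sorted fibroblasts on average and the Il6+ class at 47.8% and 19.2%. The part of the markers and of the make-up was not tested. The sort, the library and the Cell Ranger version are the same split and cannot be told apart.

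Outside the cells with 4 or more mitosis genes, where the mitosis genes are low by construction, some of the contrasts remained in the levels. Tyms stood at 7.75 ± 0.174 CPM in healthy, 17.1 ± 1.07 in untreated arthritic, 22.1 ± 2.61 in TNF-inhibited, 15.1 ± 0.981 in IL-17-inhibited and 25.8 ± 2.50 in FAP-sorted fibroblasts (mean ± SD over 3, 3, 3, 3 and 5 animals). Hist1h2ap was 2.23 ± 0.562 CPM in untreated arthritic, 2.57 ± 0.299 in TNF-inhibited and 6.70 ± 0.605 in IL-17-inhibited animals, the last with a range of 6.30 to 7.40. The spread of Hist1h2ap between IL-17-inhibited animals, 7.38 to 63.9 CPM with all cells, thus lay in the few cells taken out, while a higher level in all 3 animals remained. Ccnd1 was 36.5 ± 6.05, 22.03 ± 7.34 and 101 ± 15.3 CPM, and Cdkn1a 391 ± 42.4, 569 ± 44.02 and 377 ± 17.1 CPM, in the same 3 groups. Pclaf outside the set was 0.306 ± 0.215 CPM in untreated arthritic, 0.0877 ± 0.104 in TNF-inhibited, 0.296 ± 0.116 in IL-17-inhibited and 0.844 ± 0.310 in FAP-sorted animals. With these cells left out, an alternative chosen after seeing the data, the IL-17 against TNF inhibition call of Pclaf was lost, with a smaller estimate of 1.43 ± 0.74 (edgeR adjusted p = 0.276; 3.06 with all cells). The FAP-sorted call of Mcm2 was lost with 0.46 ± 0.22 (edgeR adjusted p = 0.106; 0.82 with all cells).

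By annotation class over all 17 animals, cells with 4 or more mitosis genes made 35 of 1055 osteoblasts (3.32%) and 200 of 9770 Mmp3+ fibroblasts (2.05%). Lining fibroblasts had 12 of 1462 (0.821%), chondrocytes 11 of 1441 (0.763%), Pi16+ fibroblasts 8 of 1414 (0.566%), Il6+ fibroblasts 22 of 7073 (0.311%) and Cd200+ fibroblasts 1 of 2012 (0.0497%). Thinned to 5000 UMIs the shares were 1.69%, 1.35%, 0.553% and 0.194% in osteoblasts, Mmp3+, lining and Il6+ fibroblasts, so osteoblasts and Mmp3+ fibroblasts stayed above lining and Il6+ fibroblasts. These shares pool groups that differ in rate and class make-up, and the FAP-sorted library held 129 of the 200 Mmp3+, 13 of the 22 Il6+ and 7 of the 8 Pi16+ cells. In the unsorted libraries alone the shares were 2.14% of osteoblasts (17 of 794), 1.17% of Mmp3+ (71 of 6090), 0.866% of chondrocytes (11 of 1270), 0.638% of lining (8 of 1253), 0.151% of Il6+ (9 of 5974) and 0.108% of Pi16+ cells (1 of 922), and 0 of 1599 Cd200+ cells, which allows a share of up to 0.188%. The order of Pi16+ and Il6+ fibroblasts thus turned without the FAP-sorted library. Pooled over animals, the order of classes also differed between groups. In untreated arthritic animals osteoblasts (6.45%) and Mmp3+ fibroblasts (1.46%) led. In TNF-inhibited animals chondrocytes had 1.08% (2 of 186), osteoblasts 0.481% (1 of 208) and Mmp3+ fibroblasts 0.266% (6 of 2259). These orders rest on few cells: the 2 TNF-inhibited chondrocytes came from 1 animal, and 6 of the 8 untreated arthritic osteoblasts came from animal 2. G2M.Score was above 0 in 23.3% of osteoblasts, 20.5% of Mmp3+ and 13.5% of lining fibroblasts, and in 29.3% of Pi16+ and 26.4% of Cd200+ fibroblasts, which ranked lower by mitosis genes. Classes were made from the same cells' RNA, so these levels carry no test. In plain CPM per animal and class (20 or more cells), Mki67 stood at 8.52 ± 1.96 in untreated arthritic and 1.81 ± 1.12 in TNF-inhibited Mmp3+ fibroblasts (SD, n = 3 each). It was 13.5 ± 18.5 under IL-17 inhibition (n = 3) and 10.04 ± 11.3 in FAP-sorted animals (n = 5), where the SD exceeds the mean.

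**Figure D5:**
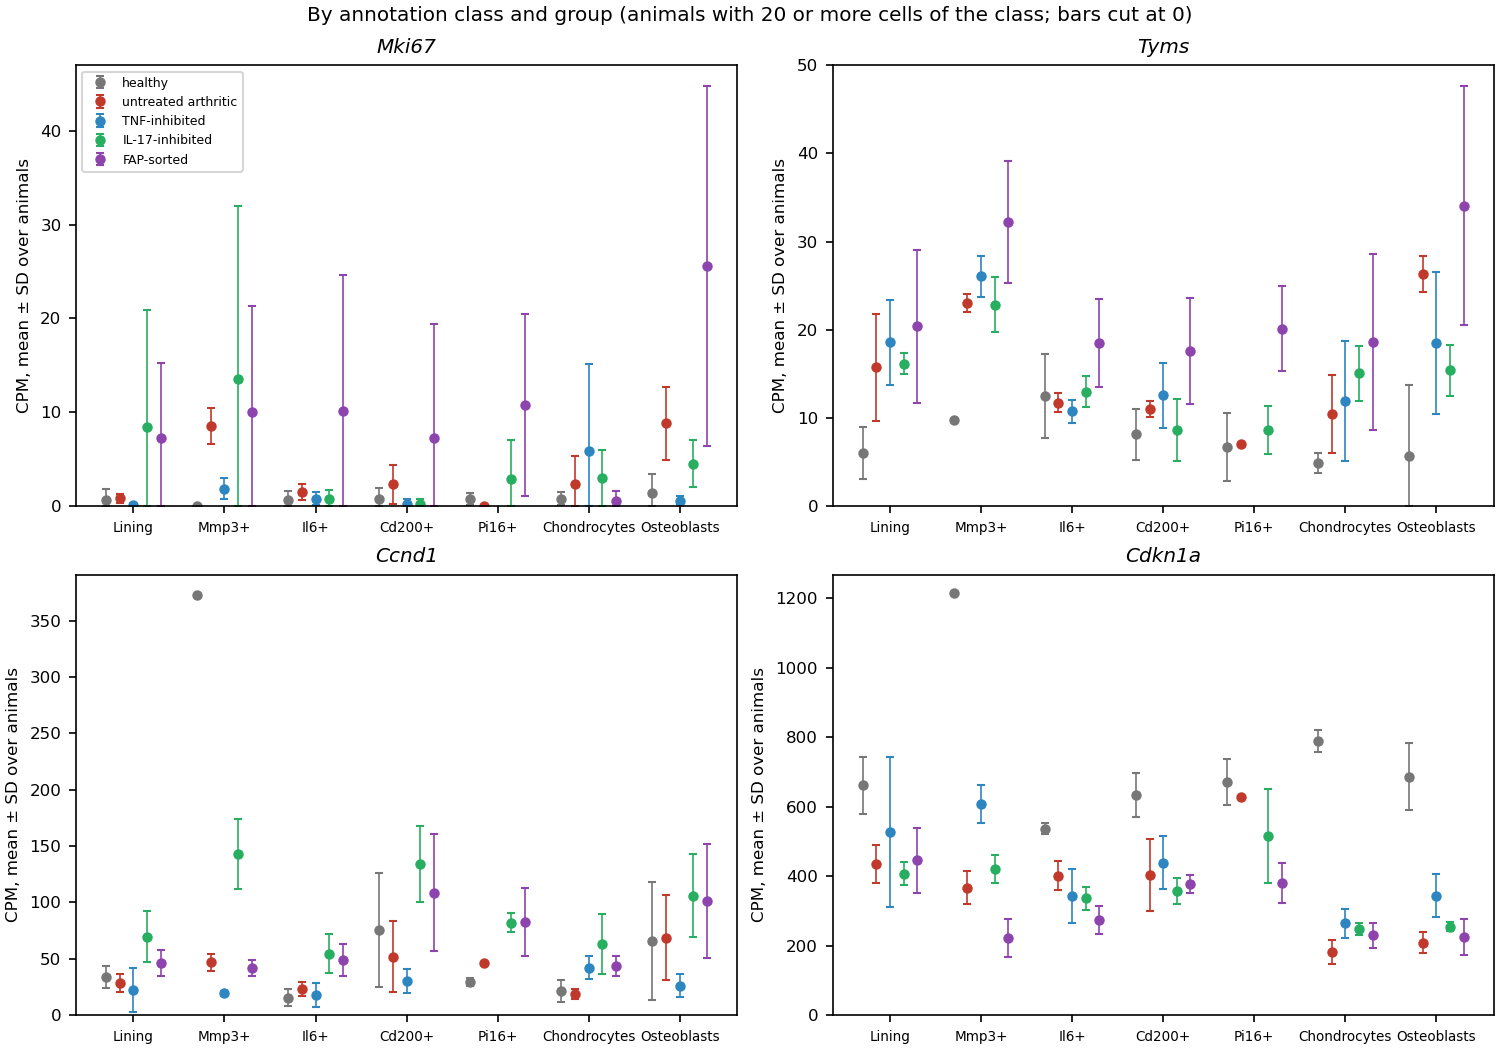
Mean ± SD over animals of Mki67, Tyms, Ccnd1 and Cdkn1a in plain CPM by annotation class and group (points without a bar, 1 animal; lower ends of bars stop at 0). Tyms is higher in Mmp3+ than in Il6+ fibroblasts of each arthritic group, Ccnd1 is highest under IL-17 inhibition in Mmp3+ fibroblasts apart from a single healthy animal at 372 CPM, and Cdkn1a has its highest mean in healthy cells of each class (1 animal for Mmp3+).

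Tyms followed class as well as disease. It was 22.98 ± 1.03 CPM in Mmp3+ and 11.7 ± 1.12 CPM in Il6+ fibroblasts of untreated arthritic animals, and 12.5 ± 4.75 CPM in healthy Il6+ fibroblasts (n = 3 each), so within the Il6+ class healthy and untreated values overlapped. In lining fibroblasts it was 6.01 ± 2.96 CPM in healthy and 15.7 ± 6.07 CPM in untreated arthritic animals (n = 3 each). Ccnd1 was higher on average under IL-17 inhibition than in untreated arthritic animals in each class with 3 animals a group that is given here: 143 ± 31.04 against 47.05 ± 7.62 CPM in Mmp3+, 54.7 ± 16.9 against 23.04 ± 6.06 in Il6+, 69.5 ± 22.6 against 28.6 ± 7.88 in lining and 134 ± 33.7 against 52.02 ± 31.5 in Cd200+ fibroblasts. Cdkn1a was lower in untreated arthritic than in healthy cells of several classes, 401 ± 42.5 against 537 ± 16.6 CPM in Il6+ fibroblasts and 182 ± 34.9 against 790.1 ± 31.7 CPM in chondrocytes. Pcna was 128 ± 8.42 CPM in healthy, 94.7 ± 5.01 in untreated arthritic and 68.3 ± 5.83 in FAP-sorted Il6+ fibroblasts, the same order as in all fibroblasts. Hist1h2ap in Mmp3+ fibroblasts was 50.1 ± 59.2 CPM under IL-17 inhibition and 5.51 ± 1.44 CPM without inhibitor.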

How the data were processed

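The deposited matrices held raw UMI counts per gene and barcode with no normalization by the authors. Cell Ranger wrote them, in version 6.0.0 without and 5.0.0 with the FAP sort per the file headers; version 6.0.6 and build mm10 stand in the submitters' processing notes. Per the labels' protocols, pooled and hashtagged cells were hyper-loaded and 3′ ends were sequenced, so many droplets can hold cells of more than 1 animal. A deposited annotation gave 24227 cells their library, hashtag, 1 of 7 classes, UMI total and the authors' S.Score and G2M.Score; the sources used here do not give how cells were filtered, doublets treated or classes and scores made. No doublet caller was run.

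Raw counts of the 5 fibroblast classes were summed per animal, the replicate. They were tested with edgeR 4.0.16 (R 4.3.3) by its quasi-likelihood test, after TMM scaling and filterByExpr, with p adjusted over all genes tested by Benjamini and Hochberg at a threshold of 0.05, with the 12 animals of the unsorted libraries in 1 fit by group. The pooled arthritic comparison had library as a further term, and the FAP-sorted comparison used 8 animals. Every adjusted p is from these fits or their named alternatives. The SE of a log2 fold change is its absolute value divided by the square root of the F statistic of that test, and is approximate. Levels are CPM with TMM-scaled sizes, also those per animal outside the cells with 4 or more mitosis genes. Levels by class, and those inside and outside that set pooled over animals, are plain CPM. Intervals are 95% Wilson intervals, and 0 cells allow up to 3. The edgeR steps were tested on simulated data with the same spread between animals set for every gene, and so not with the wide spread of the mitosis genes.

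The 32 genes, the wider lists and the markers were chosen with earlier results of these data known. By rule, values per animal are given for the 12 genes with the smallest adjusted p among those called and always for 10 others fixed by name, Mki67 among them, with overlap between the 2 sets; up to 5 called genes a direction are named from each wider list. A gene of the replication list is counted there but not reported here by name. Birc5, called but outside the 12, is named after its values were seen. Alternatives were DESeq2 1.42.0, RLE scaling, no filter, all 7 classes, the Il6+ class alone, a library term, a replicate block and leaving out each animal. Leaving out cells with 4 or more mitosis genes and using no scaling were added after seeing the data. Promoters came from RefSeq tables (GRCm38.p6).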

Additional observations from a re-analysis of the deposited data

Results flagged for a closer look

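FAP-sorted animal 4 stood apart from the other 4 of its group, by Dixon's gap test at 95%, in 9 of 35 quantities checked, where chance alone marks about 1 in 20. Its levels were 31.7 CPM for Mki67, 18.02 CPM for Cenpf, 9.48 CPM for Ccnb1, 16.9 CPM for Ccnb2, 3.61 CPM for Aurka, 12.9 CPM for Tpx2, 5.38 CPM for Mcm2 and 9.03 CPM for Mcm3, and 6.96% of its cells had 4 or more mitosis genes. This animal also had the highest median UMIs per cell, 20607.5, and its part in these values was not tested. The genes are expressed in the same cells, so these are not separate signs.

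The direct comparison of IL-17-inhibited with TNF-inhibited animals, each group from its own library, called 6 genes. The difference was a log2 fold change of 3.06 for Pclaf, 1.24 for Mcm5, -0.40 for Tyms, 3.10 for Hist1h2ap, 2.28 for Ccnd1 and -0.58 for Cdkn1a. Pclaf (1.86 without IL-17-inhibited animal 1), Mcm5 and Tyms lost their calls when single animals were left out, Tyms turned to 0.21 in the Il6+ class alone, and with library as a term no gene of the module was called.

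Barcodes outside the deposited annotation also held cells with UMIs of 4 or more mitosis genes. They were 64 of 5764 barcodes (1.11%) in the untreated library, 63 of 5550 (1.14%) in the TNF-inhibited, 78 of 6595 (1.18%) in the IL-17-inhibited and 121 of 5522 (2.19%) in the FAP-sorted library, 326 of 23431 in all. Their share exceeded that of the annotated cells in the unsorted libraries (0.693%, 0.244% and 0.952%) and not in the FAP-sorted one (2.72%), although the median UMIs of barcodes outside the annotation, 5584.5 to 6915, were lower. What cells these are was not tested.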

How the results depend on the processing

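Of 542 recomputed values, 381 kept their direction and side of the threshold (or stayed within 1.5 times or 1 interval of the value given), 120 single genes were no longer past the threshold, 39 counts or shares moved and 2 single genes turned. The cause was not tested except where fewer genes or cells entered a fit. With the Il6+ class alone, where 15 of the 32 genes (9 in the FAP-sorted contrast) could be tested, Cdkn1a turned to -0.14 under TNF inhibition and Tyms to 0.21 between the inhibitors. The number of genes called with that class was 0 for untreated arthritic against healthy (2 with all classes), 0 for TNF inhibition (1), 1 for IL-17 inhibition (2), 1 between inhibitors (6), 1 for all arthritic against healthy (7) and 5 for FAP-sorted (10). With library as a term it was 0 for TNF inhibition, 0 for IL-17 inhibition and 0 between inhibitors, a fit that rests on 1 healthy animal per library. DESeq2 called 2, no filter on low counts 3, the cells with 4 or more mitosis genes left out 2 and no scaling 2 for TNF inhibition. No filter gave 14 between inhibitors, no scaling 4 for untreated arthritic against healthy, and no library term 2 for all arthritic against healthy. With no scaling the median of all genes lay at -0.20 for untreated arthritic against healthy, 0.12 between inhibitors and -0.20 for all arthritic against healthy, and with no filter at 0.17 in the last.

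Without each animal in turn the counts ran from 2 to 2, 0 to 3, 1 to 3, 3 to 20, 1 to 10 and 4 to 20 for untreated arthritic against healthy, TNF inhibition, IL-17 inhibition, the inhibitors, all arthritic against healthy and FAP-sorted. Hashtag numbers 1 to 3 recur in the unsorted libraries but pair no animals: the deviations of same-numbered animals had correlations of -0.168 to 0.156. With the number as a replicate block the count was 1 for IL-17 inhibition and 3 between inhibitors, and it stayed at 1 for TNF inhibition. The share of cells with several mitosis genes was 1.19% at 4 or more, 1.54% at 3 or more and 0.784% after thinning to 5000 UMIs. Depth limits the low genes: Bub1 could not be tested in the unsorted libraries, and several mitosis genes had 0 UMIs in a healthy animal.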
